A study of Rattus norvegicus with 6 samples.

Results

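Exonic and 5' UTR peaks outside promoters are the 1486 places where the α1ACT-only chromatin signal of a PC12 line fell on the transcribed exons of a gene, away from any annotated promoter. They are the rows that the authors' annotated peak table places in an exon (1458 peaks) or in a 5' UTR (28 peaks), out of 159452 peaks in that table (0.932%, exact 95% binomial interval 0.885 to 0.980). The annotation and not the measured signal chose them. Because the table names promoters first, a peak that the table puts within 3 kb of a transcription start site (TSS) cannot be among them. By the table's distance the member nearest to a TSS lies 3002 bp from it, in the last of 6 exons of the sphingosine kinase gene Sphk2, with a signal of 2.44.

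The libraries came from PC12 cells, a rat pheochromocytoma line derived from the adrenal medulla. The cells expressed human α1ACT (titled Q11) or carried the pCDNA3 vector alone (EV). Each line was precipitated with the M2 anti-FLAG antibody or with an antibody called 1804, and each gave an input. All 6 groups are 1 library of cells at passages 18 to 20, so replicate spread is unknown and conditions were not tested against each other. What 1804 recognises, whether a line is 1 clone and which promoter drives α1ACT are not stated in the labels, and the series design text names tissues at day 3 where the sample labels name PC12 cells. Binding data do not measure marker expression, so the cell type could not be checked against its markers. The peaks described here come from the α1ACT 1804 library, whose list held 161730 peaks, each 56 bp wide. The other lists held 81 peaks (α1ACT, M2), 272 peaks (EV, 1804) and 244 peaks (EV, M2). Read depth is unknown. The signal is the authors' own value for each peak, scaled in a way the sources used here do not state, and it serves only to rank peaks within the α1ACT 1804 list.

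α1ACT is a transcription factor translated from the 3' part of the mRNA of CACNA1A, the gene of the pore subunit of the P/Q-type calcium channel, which is prominent in cerebellar Purkinje cells. Transcription factors are usually described at promoters and at distal enhancers. Exons can also carry regulatory sequence, and a peak over an exon can mark an internal promoter or an enhancer within the coding sequence. A fragment of crosslinked chromatin is longer than the listed peak, so a peak over an exon does not place the bound protein on the exon itself.

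None of the 1486 exonic and 5' UTR peaks overlapped a peak of the other 3 lists by 1 bp or more. That count of 0 allows a share of up to 0.202%, for counting error only. The same share over all annotated peaks was not counted, and the α1ACT M2 list held only 81 peaks. The 0 is therefore not read as a trait of exonic and 5' UTR peaks. The nearest empty-vector peak lay 36728 bp from a member, an exonic peak of Rexo1, and the nearest α1ACT M2 peak 38091 bp from one, an exonic peak of the palmitoyltransferase gene Zdhhc8. The table is named by the authors as holding peaks of the α1ACT cells only, so the absence from the empty-vector lists is no result here. The lists hold only called peaks, so they do not show whether weaker signal lay at these exons in the other libraries.

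The host gene of α1ACT was among the genes with most exonic peaks. Cacna1a, on chromosome 19, carried 8 exonic peaks, and Speg, with 9, was the only gene with more (all coordinates are on rn5). The authors' table assigns each peak to the gene with the nearest TSS, and all 8 were assigned to Ier2, an immediate early gene that lies beyond the 3' end of Cacna1a. Only the exon named in the annotation shows that they lie in Cacna1a. All 8 lay in the distal part of the gene, 146 to 222 kb from its start. The highest was in exon 39 of 47, from 36715151 to 36715206, with a signal of 15.4, which ranks 191st in the table. Exon 32 (36689312 to 36689367) had 10.9 and exon 45 (36724089 to 36724144) had 10.1. They stood above 99.9% (exon 39), 99.5% (exon 32) and 99.3% (exon 45) of all peaks in the table. Exon 35 had 5.87, exon 28 had 4.97, the peaks of exon 19 had 5.37 and 2.24, and exon 44 had 2.27. Of the 8, 5 were in the upper 10% of the table by signal (5.28 or more), which holds 10% of all annotated peaks. The 8 intronic peaks of Cacna1a had signals of 2.43 to 4.94 with a median of 3.35, against 2.24 to 15.4 with a median of 5.62 for the exonic ones, so the 2 ranges overlap at the low end. Which of these rat exons correspond to the introduced human α1ACT sequence is not given in the sources used here, and whether DNA of the introduced construct adds to the signal at them was not tested.

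**Figure D1:**
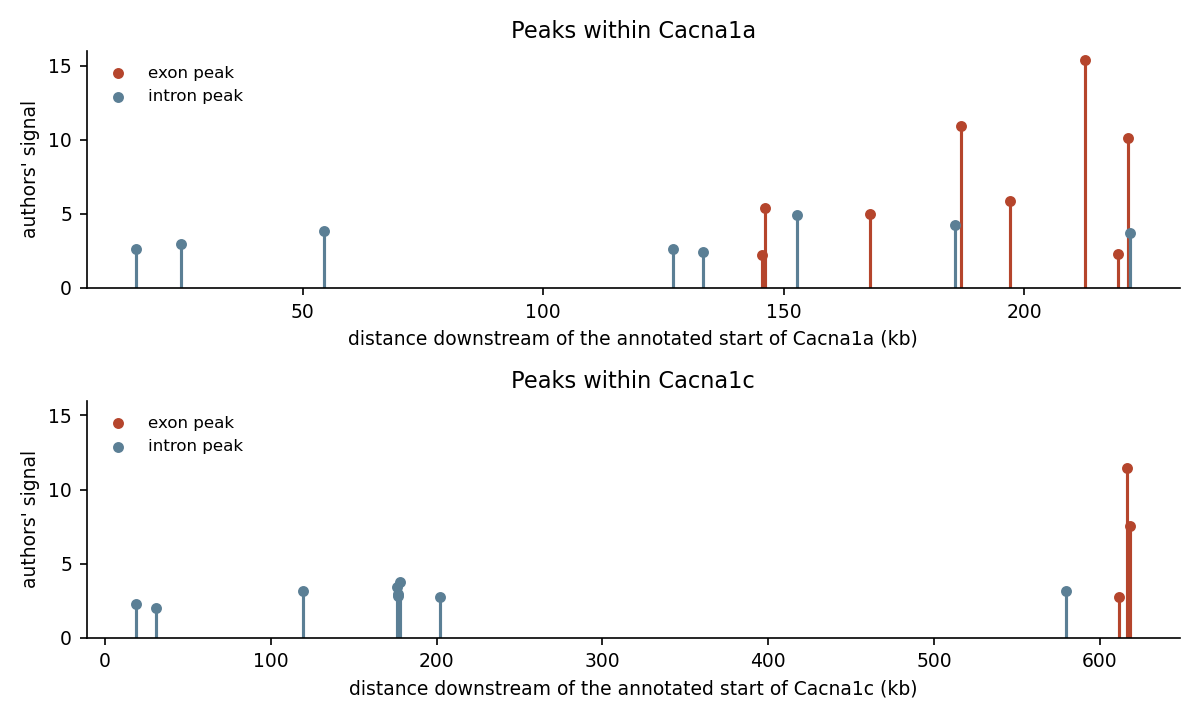
Peaks within Cacna1a (top) and Cacna1c (bottom). The x axis is the distance in kb from the annotated start of the gene in the direction of transcription, and the y axis the authors' signal of each peak in the α1ACT 1804 library; exonic peaks are red and intronic peaks blue. The 8 exonic Cacna1a peaks lie between 146 and 222 kb from the start, and 3 of them reach 10.1 or more, while no intronic peak of the gene exceeds 4.94.

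Other pore and auxiliary subunit genes of voltage-gated calcium channels also carried exonic peaks. Of 17 such genes named in the table, 5 had one (29.4%), against 8.59% of all 14569 genes. Intronic peaks were also frequent in this list, found in 15 of the 17 (88.2%), against 37.3% of all genes. In Cacna1c, which encodes the L-type pore, 3 exonic peaks lay near the 3' end of the gene on chromosome 4. Exon 46 of 47 (216568623 to 216568678) had a signal of 11.4, exon 47 had 7.51 and exon 43 had 2.78. The 9 intronic Cacna1c peaks ran from 2.04 to 3.76, below both of the stronger exonic ones. Cacna2d2, an auxiliary α2δ subunit, had 7.70 in exon 37 of 39 and 4.73 in exon 34. Cacna1h, a T-type pore, had 5.32 in exon 12 of 34, and Cacna1b, the N-type pore, had 3.17 in exon 19 of 46. The list held 15 exonic peaks with a median signal of 5.37, against 3.46 over all members, and 8 of the 15 are those of Cacna1a. Calcium channel genes have many exons, a median of 39 in the transcripts named in the table, against 11 over all genes. Exon number was not adjusted for, and its part in the share was not tested. By nearest TSS, 1 of these genes would have been counted and not 5.

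The exonic peak of highest signal was in Lrfn1, a synaptic adhesion molecule gene. Its signal was 17.9, in exon 2 of 2 (chromosome 1, 86508195 to 86508250), 7654 bp from the TSS. It is also the highest of all 1486 members and ranks 97th in the table. The same exon held another 2 peaks, with signals of 10.6 and 6.85, so all 3 Lrfn1 peaks were in the upper 10%. After Lrfn1 and Cacna1a, the strongest members were in Zfp316, a zinc finger gene, with 12.1 in exon 7 of 8, and in Asb16, a SOCS box gene, with 12.0 in exon 3 of 5. Sema6c, which encodes a transmembrane semaphorin, had 11.6 in the last of 18 exons. Inppl1, which encodes an inositol lipid phosphatase, had 11.2 in exon 28 of 29, and the kinesin gene Kif19 had 11.0 in exon 18 of 20. The scaffold gene Magi2 had 10.4 in exon 23 of 24, and March3, a membrane-bound ubiquitin ligase gene, had 10.4 in exon 4 of 5. The strongest last exons were those of Lrfn1, Sema6c and Arl2, an Arf-like GTPase gene, whose exon 5 of 5 had 10.4. Many of these peaks sat near the 3' end of the transcript: Cacna1c, Inppl1, Zfp316, Magi2 and March3 each had theirs in the last exon but one. For 6 of the 10 highest genes the nearest TSS was that of another gene: Ier2 for Cacna1a, Zfp9 for Cacna1c, Phox2a for Inppl1, Btbd17 for Kif19, Phtf2 for Magi2 and Lmnb1 for March3.

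Most genes had a single exonic peak. The 1486 members belonged to 1252 genes, of which 1071 had 1, 151 had 2 and 30 had 3 or more. They fell on 1414 distinct exons, and 38 of these held more than 1 peak. Speg, a kinase gene named for striated muscle, led with 9 peaks. Exon 30 of 41 alone held 5 of them, on chromosome 9 between 82387638 and 82389076, with signals of 3.73, 6.93, 5.28, 9.83 and 2.61 in genomic order. The other 4, in exons 4, 17, 20 and 25, had 2.33, 2.88, 2.33 and 3.77. Signal was thus highest within exon 30, and 1 of its 4 intronic peaks, with 6.79, lay in the next intron. Of the 9 exonic Speg peaks, 6 were assigned to Gmppa by nearest TSS. Sptbn4, which encodes a spectrin of the axon initial segment, had 5 peaks with signals of 2.46 to 4.73, and Scarf2, a scavenger receptor gene, had 5 with 2.13 to 4.22, so that neither reached the upper 10%. Next were 8 genes with 4 peaks, of which Srrm2, a splicing scaffold of nuclear speckles, had the highest signal. Its exon 12 held 9.98, 4.73 and 3.86, and its exon 3 held 7.47. Exons with 3 or more peaks were those of Speg, Lrfn1, Srrm2 and the mucin gene Muc19, whose exon 34 held 3 peaks of 2.77 to 3.18.

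Exonic peaks spread over the whole exon order except its start. Exon 1 held 2 of the 1458 (0.137%, 0.0166 to 0.495), since most first exons lie within 3 kb of the TSS and count as promoter. These were Irs1, an insulin receptor substrate gene, with a signal of 2.63, and Hspa1b, an inducible heat shock chaperone gene. Hspa1b was the single transcript of 1 exon, with a signal of 4.60 at 3388 bp from the TSS, and it has a near-identical neighbouring copy, so its peak is uncertain. Exon 2 held 131 peaks, exons 3 and 4 held 160 each and exon 5 held 109, exon 6 held 99, exon 7 held 91 and exon 8 held 70. Exons 2 to 4 together held 30.9% of exonic peaks (28.6 to 33.4) and exon 15 or later 22.4% (20.2 to 24.6). The median peak was in exon 7 of a transcript of 14 exons (quartiles 4 and 14 for the exon, 8 and 22 for the transcript). Of the 1457 peaks in transcripts with several exons, 283 (19.4%, 17.4 to 21.6) were in the last and 1173 (80.5%) in an internal exon. Peaks that the table places in a 3' UTR form a class of their own and are not in these counts. Only 5 exonic peaks were in transcripts with a noncoding (NR) accession.

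**Figure D2:**
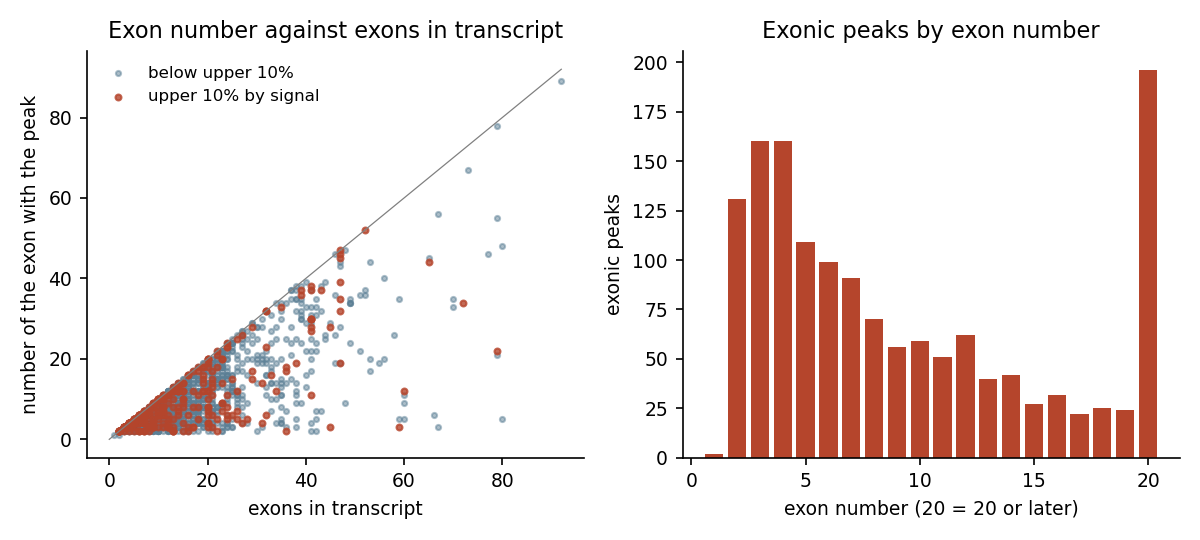
Left, the number of the exon with the peak (y) against the number of exons in its transcript (x) for the 1458 exonic peaks, red where the signal is in the upper 10% of the annotated table; points on the grey line are last exons. Right, exonic peaks by exon number, with exon 20 and later in 1 bar: exons 3 and 4 hold 160 peaks each and exon 1 holds 2.

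The position along the gene is set in part by the choice of members, since the 3 kb around each TSS count as promoter and can take up much of the 5' end of a short gene. For 1389 of the 1458 the TSS of their own transcript is given in the table. Measured to the edge of the peak nearer the TSS, which can be up to a peak width less than the table's distance, their median distance from it was 16.9 kb (quartiles 7.48 and 44.7 kb, lowest 2973 bp), and their median position was 76.4% of the gene length from the start, against 50.9% for 25086 intronic peaks. The 20% of the gene length next to its 3' end held 622 (44.8%, 42.1 to 47.4), against 19.0% of intronic peaks. Next to the 5' end, an equal length held 52 (3.74%). No figure for how exons themselves are spread along genes was available on this build, so these shares are not set against the exon density, and they are a description of where the listed peaks lie. To the nearest TSS of any gene the median was 12.4 kb (quartiles 6.51 and 27.9 kb) for members and 54.4 kb for intronic peaks. Within 5 kb of a TSS were 225 members (15.1%), between 5 and 10 kb 387 (26.0%), between 10 and 50 kb 696 (46.8%), and beyond 50 kb 178 (12.0%). The farthest from a TSS lay in exon 24 of 25 of the cell polarity gene Pard3, at 551568 bp, with a signal of 3.83.

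The signal of exonic and 5' UTR peaks lay between that of promoter peaks and that of intronic peaks. The median was 3.46 (quartiles 2.80 and 4.73), against 3.00 for intronic peaks, 3.18 for 3' UTR peaks, 4.03 for promoter peaks and 2.98 for distal intergenic peaks. In the upper 10% by signal were 278 members (18.7%, 16.8 to 20.8), against 8.46% of intronic peaks (8.12 to 8.80), 17.0% of 3' UTR peaks (13.4 to 21.0), 32.5% of promoter peaks (31.6 to 33.3) and 7.89% of distal intergenic peaks (7.73 to 8.04). The intervals of members and 3' UTR peaks overlap, and those of members do not overlap the intervals of intronic, promoter or intergenic peaks. Peaks of 1 library are not replicates, so these intervals cover counting error only. Members were 1 of the 100 highest peaks and 10 of the 1000 highest peaks of the table, shares close to the 0.932% of members among all peaks. The signal takes repeated values, 717 different ones over the 1486 members, of which the most frequent, 3.18, was shared by 59.

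**Figure D3:**
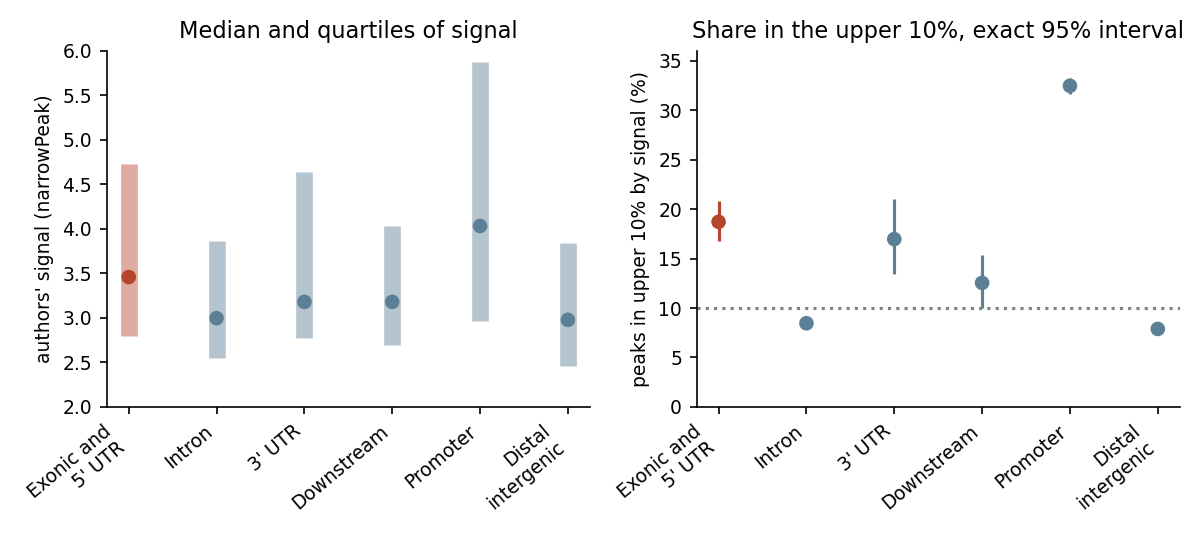
Left, median (point) and quartiles (bar) of the authors' signal for exonic and 5' UTR peaks outside promoters (red) and for 5 other annotation classes (blue) of the α1ACT-only table; the axis starts at 2, near the lowest signal of the list. Right, share of each class in the upper 10% of the table by signal, with exact 95% binomial intervals and the 10% of all peaks as a dotted line: members reach 18.7% and intronic peaks 8.46%.

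Members took a larger share of the peaks at high signal. In 10 bins of equal size, exonic and 5' UTR peaks were 0.539% of the lowest bin, between 0.420% and 1.27% of the next 8, and 1.74% (1.55 to 1.96) of the highest. Among exonic and intronic peaks alone, exonic peaks were 3.40% of the lowest bin (2.72 to 4.18) and 11.0% of the highest (9.75 to 12.3). The increase was not even, since bin 5, with 6.29%, was above the next 3. Nor did it continue to the very top, where members were 10 of the 1000 highest peaks, close to their 0.932% of all peaks.

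**Figure D4:**
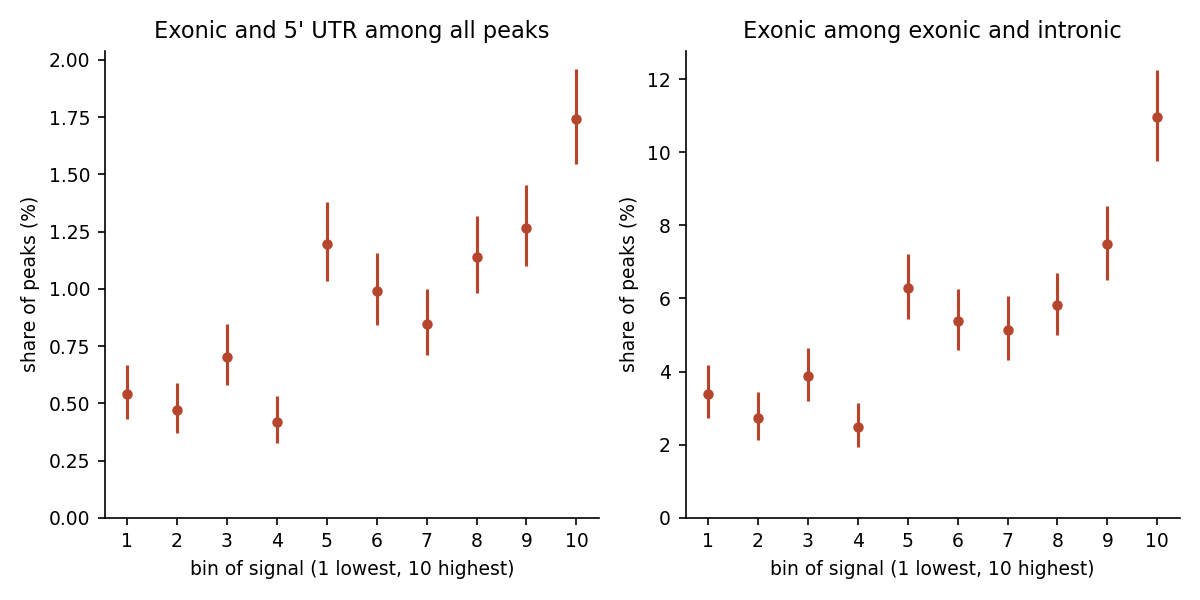
Share of exonic and 5' UTR peaks among all annotated peaks (left) and of exonic peaks among exonic and intronic peaks (right) in 10 bins of equal size from the lowest to the highest signal; bars are exact 95% binomial intervals. The highest bin reaches 1.74% on the left and 11.0% on the right.

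The difference from introns was smaller within the same gene. Of 1227 genes with an exonic peak, 654 also had an intronic one. In those, 17.5% of exonic peaks were in the upper 10% (14.9 to 20.2), against 11.2% of intronic peaks (10.1 to 12.4). Gene by gene, however, the median signal of exonic peaks was above that of intronic peaks in 336 of the 654 (51.4%, 47.5 to 55.3), and the median ratio of exonic to intronic was 1.01 (quartiles 0.795 and 1.40). Cacna1a, Cacna1c and Speg were among the genes where exonic peaks were higher, and in the spectrin gene Sptbn4 the intronic median was higher (3.40 for 5 exonic peaks, 3.72 for 3 intronic). From 3 to 10 kb from the nearest TSS, 20.6% of 598 exonic peaks (17.4 to 24.0) were in the upper 10%, against 11.3% of intronic peaks (10.2 to 12.5). From 10 to 50 kb the share was 16.3% of 683 exonic peaks (13.6 to 19.2), against 9.01% of intronic peaks (8.44 to 9.60), and beyond 50 kb 19.8% of 177 (14.2 to 26.4), against 7.48% (7.04 to 7.93). Within the exonic peaks, signal went little with position. Spearman's rho was 0.07 with relative position in the gene (n = 1389), -0.02 with distance from the own TSS and -0.01 with exon number (n = 1458). These describe peaks of 1 library. Last exons had a median of 3.75 (3.50 to 4.02), against 3.40 (3.18 to 3.51) for internal exons, and 23.7% of them (18.8 to 29.1) were in the upper 10%, against 17.2% (15.1 to 19.5) of internal ones.

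Exonic and 5' UTR peaks had fewer near neighbours than intronic, promoter or intergenic peaks. Another peak of the α1ACT 1804 list lay within 1 kb of 256 members (17.2%, 15.3 to 19.2), against 43.3% of intronic, 18.5% of 3' UTR, 52.4% of promoter and 55.7% of distal intergenic peaks. The median gap to the next peak was 5251 bp for members and 1712 bp for intronic peaks. Merging members of 1 gene less than 1 kb apart left 1423 sites.

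The 28 peaks of the 5' UTR class carry no transcript in the table, so only the nearest gene is known. Their median signal was 3.80 and 9 of 28 (32.1%, 15.9 to 52.4) were in the upper 10%. The highest was near Tm2d3, with 7.75 (chromosome 1, 127677315 to 127677370). Vom2r41, a vomeronasal receptor gene of a multigene family in which reads can be shared, and Tdrkh, a Tudor domain gene of the piRNA pathway, followed with 7.01 each. The Tdrkh peak lay 13765 bp upstream of the TSS given for that gene, so the transcript whose 5' UTR holds it is not named. Next were the hydrolase gene Abhd2 with 6.99 and Sec24a, a coat protein gene of vesicles leaving the endoplasmic reticulum, with 6.79. The forkhead gene Foxp4 had 4.03.

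Genes with exonic peaks often had a promoter peak too. Of the 1252 genes, 753 (60.1%, 57.4 to 62.9) had a promoter peak assigned, against 48.5% (47.1 to 50.0) of 4771 genes with an intronic and no exonic peak and 51.6% of all genes. Members of genes with a promoter peak had a median signal of 3.40, against 3.51 for members of genes without one. The share in the upper 10% went the other way, 19.4% (16.9 to 22.2) against 17.6% (14.6 to 20.9), with overlapping intervals.

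Gene groups were compared by the share of their genes with a member, beside 8.59% over all 14569 genes of the table. Markers of chromaffin and sympathetic cells, the lineage of PC12, had 7 of 30 (23.3%, 9.93 to 42.3). Th, the rate-limiting enzyme of catecholamine synthesis, had 8.58 in exon 3 of 13 (chromosome 1, 222939538 to 222939593) and 4.92 in exon 9. Phox2a, a homeodomain factor of noradrenergic neurons, had 7.44 in exon 4 of 4 and 2.38 in exon 3. The granin gene Chgb had 5.66 in exon 4 of 5 and the GATA factor gene Gata2 had 5.65 in exon 6 of 7. The prohormone convertase gene Pcsk2 had 2.98 and the LIM homeodomain gene Isl1 had 2.66. Of the 7, Th, Phox2a, Chgb and Gata2 reached the upper 10%. Of 25 Purkinje and granule cell genes, 3 had a member (12.0%, 2.55 to 31.2). These were the forkhead gene Foxp2 with 3.56, Ebf2 with 3.18 and Pax6 with 2.98, and none was in the upper 10%. Of 23 genes of hepatocytes, muscle and immune cells, 1 had a member (4.35%), the cardiac troponin gene Tnnt2 with 4.02.

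Apart from the list of only 3 mucin genes (33.3%), the highest share was that of collagen genes. Chromatin regulators and the joint list of dyneins and myosins also stood above 8.59%. Collagen genes had 8 of 25 (32.0%, 14.9 to 53.5), led by Col4a1 of basement membranes with 5.28 in exon 52 of 52 and Col5a3 with 4.92 in exon 56 of 67. Chromatin regulators had 11 of 43 (25.6%, 13.5 to 41.2), led by the histone demethylase gene Kdm2a with 6.37 in exon 17 of 21 and the histone deacetylase gene Hdac5 with 5.87 in exon 11 of 24. The DNA methyltransferase gene Dnmt1 had 4.22 in exon 35 of 38. The joint list of dynein and myosin genes had 7 of 28 (25.0%, 10.7 to 44.9). All 7 were myosin genes, with Myh3 at 3.73 and Myo7a at 3.67, and no dynein gene had a member. No peak of this list was in the upper 10%. Intronic peaks were found in 72% of collagen, 67.4% of chromatin regulator and 67.9% of dynein and myosin genes, against 37.3% of all genes. The transcripts had a median of 51 exons for collagens, 26 for chromatin regulators and 40 for dyneins and myosins, against 11 for all genes. Chromaffin genes had a median of 11 exons, and potassium and sodium channels 8. The part of exon number in these shares was not tested. Potassium and sodium channel genes had 12 of 91 (13.2%), led by the tandem-pore channel gene Kcnk12 with 7.35 in exon 2 of 2 and the sodium-activated channel gene Kcnt1 with 5.85 in exon 32 of 32. Of 3 mucin genes, 1 had a member, Muc19.

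Other lists had shares near or below that of all genes, and several rest on 1 gene with a wide interval. Of 27 immediate early genes, 24 had a promoter peak and 1 an exonic peak (3.70%, 0.0937 to 19.0), the Kruppel-like factor gene Klf10, with 5.87 in exon 3 of 4. By nearest TSS the count would be 3, with Ier2 among them. Of 77 genes whose symbols match the ribosomal protein pattern (Rpl or Rps with a number), 55 had a promoter peak. Of these 77, 1 had an exonic peak, Rps19 with 2.32. The list was not checked beyond the symbols, and its transcripts had a median of 18.5 exons, against 11 for all genes. Some of its genes may therefore not encode ribosomal proteins. Ribosomal protein genes have processed copies, so the Rps19 peak is uncertain. Of 33 histone genes, 27 had a promoter peak and 1 an exonic peak (3.03%, 0.0767 to 15.8), H2afy, which encodes a macroH2A variant, with 4.97 in exon 9 of 9. Protocadherins had 1 of 35 (2.86%, 0.0723 to 14.9), assigned to Pcdha5 with 2.80 in exon 4 of 4, an exon that the transcripts of the Pcdha cluster share. Of 64 Sox, Fox and Hox genes, 5 had a member (7.81%), led by Foxp4 and Foxp2. Zinc finger genes had 14 of 158 (8.86%, 4.93 to 14.4), with Zfp316 at 12.1 and Zfp496 at 6.50, and solute carriers 17 of 302 (5.63%, 3.31 to 8.86), with the inositol transporter gene Slc2a13 at 8.34 in exon 10 of 10 and the lactate transporter gene Slc16a3 at 6.41. Olfactory receptors had 0 of 830 (a count of 0 allows up to 0.361%), and vomeronasal receptors had 5 of 171 (2.92%, 0.956 to 6.69), with Vom2r41 at 7.01 and Vom2r56 at 4.21. Olfactory receptor transcripts had a median of 2 exons, against 11 for all genes, and 10 of the 830 genes had an intronic peak. Because the 3 kb around each TSS count as promoter, short genes with few exons have little room for a member. Low shares of such genes are therefore not read as a trait of their families. Of the genes reported earlier as α1ACT targets, neither Btg1, Grn nor Atp2b2 had an exonic or 5' UTR peak outside promoters. So few genes do not allow a share to be read. With Cacna1a they make a list of 4 genes, of which 2 had a promoter peak and 3 an intronic peak.

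**Figure D5:**
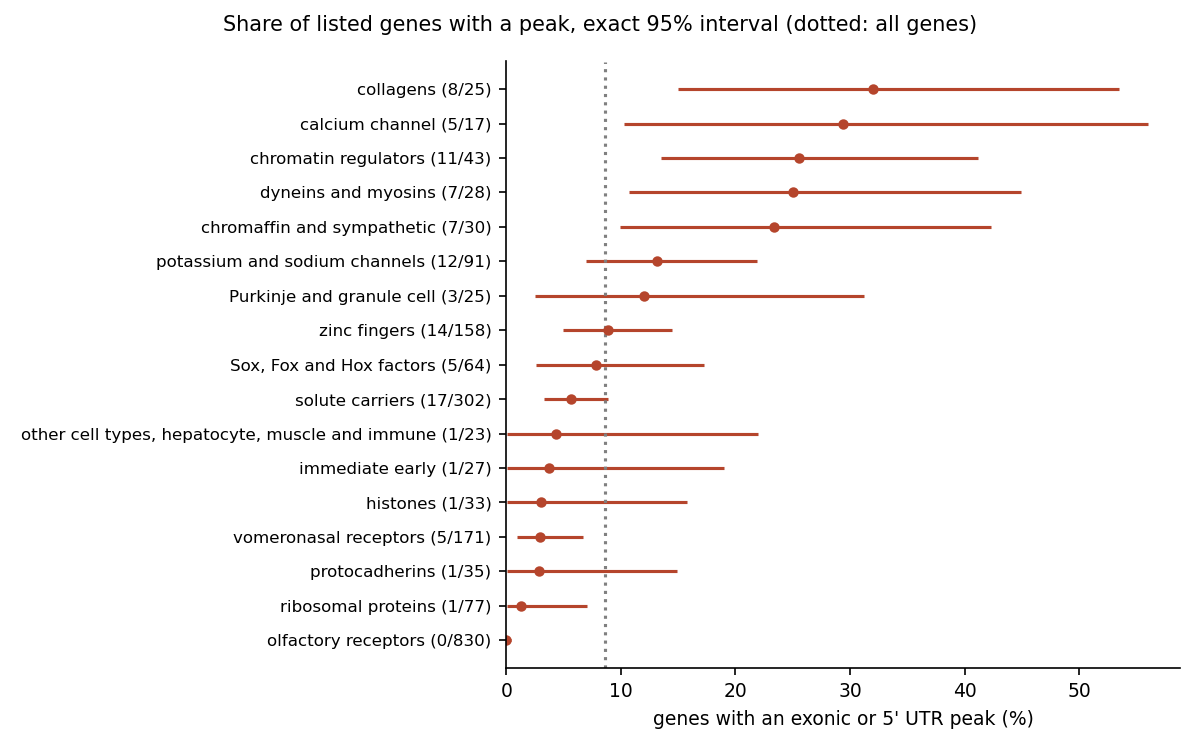
Share of the genes of each list that carry an exonic or 5' UTR peak outside promoters, with exact 95% binomial intervals that cover counting error only. Numbers in brackets are genes with such a peak over genes named in the table, and the dotted line is the 8.59% of all genes. The lists of 3 mucin genes and of the 4 reported α1ACT targets with the host gene are not drawn. Of those drawn, collagens (32.0%), calcium channels (29.4%) and chromatin regulators (25.6%) are the highest and olfactory receptors (0 of 830) the lowest. Exon number and gene length were not adjusted for, and short genes with few exons have little room for such a peak.

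Exonic and 5' UTR peaks were unevenly spread over the chromosomes. They made up 3.19% of the peaks of chromosome 10 (202 of 6333, 2.77 to 3.65) and 2.69% of those of chromosome 12, against 0.106% on chromosome X (10 of 9414, 0.0510 to 0.195) and 0.276% on chromosome 2 (51 of 18467). Chromosomes 10 and 12 also had few peaks per gene named in the table, 5.27 and 6.69, and chromosomes X and 2 had many, 21.1 and 19.5. Counted per 100 such genes, the numbers were 16.8 and 18.0 members on chromosomes 10 and 12, and 2.24 and 5.38 on X and 2. Chromosomes 4 and 5, with 9.28 and 9.94 peaks per gene, had 3.28 and 3.41 members per 100 genes. The median signal of members was between 3.00 on chromosome 15 and 3.73 on chromosome 1.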

How the data were processed

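Chromatin of PC12 cells, crosslinked with 1% formaldehyde for 10 min, was profiled by ChIP-seq. Per the submitters' processing notes the build is rn5, and the tools, with no role given, include BWA 0.7.5a, ChIPseeker, DiffBind, HOMER and FastQC 0.11.2. The names of the deposited lists carry spp, the name of a peak caller, with no version stated. The authors deposited, per library, a list with a signal value and a −log10 q-value (1.34 to 3.89 over members), and 1 annotated table that also gives a signed TSS distance, a score in bp. Depth is unknown. Members were taken by annotation and joined to the signal by position (1486 of 1486). The gene is the one named with the exon, or the nearest gene for 5' UTR peaks; 44 symbols came from a RefSeq gene table of GRCr8, used for names only. Exact Clopper-Pearson 95% intervals cover counting error only; a count of 0 was given the limit of 3 counts. Named genes were the highest by signal overall (10), in the 5' UTR class (5), in last, internal and single exons (3 each), in each of 19 lists (2), the 5 genes with most members (ties by signal), and the members farthest from and nearest to a TSS; placeholder symbols were skipped. Members, lists and rule were chosen with earlier results of these data known. Dnmt1, Cacna2d2, Cacna1h, Cacna1b, Irs1, Pax6, Chgb, Gata2, Pcsk2 and Isl1 were named after their values were seen. Functions were tested on simulated data; Python 3.11.15, pandas 2.3.3 and SciPy 1.17.1 were used. No sequence is printed, since no rn5 genome was used here.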

Additional observations from a re-analysis of the deposited data

How the results depend on the processing

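With 1 library per group nothing could be left out, and no paired analysis was possible because each group holds a single sample. Limited to the upper 50% by signal, 955 members remained among the counted peaks, 1.20% of the peaks kept, and to the upper 10% by signal 278, or 1.74%; the limit itself sets these counts. In the upper 10% there were 258 genes with a member and 27 list genes, against 1252 and 99; the last exon held 24.9% of exonic peaks, the first exon 0%, and the median TSS distance was 11206 bp. As a share of non-promoter genic peaks, members were 5.36%. The 5' UTR rows alone had a median signal of 3.80 and a median TSS distance of 9629.5 bp. Merging neighbours, leaving out first exons or single-exon transcripts, and a distance of 10 kb or more left the median signal between 3.43 and 3.50 and the share in the upper 10% between 17.3% and 19.1%. Assigning members to the nearest gene gave 1262 genes, but it took Cacna1a out of the calcium channel list, whose count was then 1 and not 5, and chromatin regulators had 5 and not 11.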

Other observations

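The nearest TSS was that of another gene than the one whose exon held the peak for 502 of 1458 exonic peaks (34.4%, 32.0 to 36.9), and for 28.3% of intronic peaks. After Ier2, with 8 exonic peaks of Cacna1a, the genes that received most such peaks were Gmppa, with 6 of Speg, and Wdsub1, with 5 of Baz2b and Tanc1. For 37 genes with an exonic peak, no peak of the table was assigned to the gene at all.

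Exon numbers in the deposited table follow the direction of transcription on both strands, whereas intron numbers do not. The order of the exon in its transcript went with the position of the peak along the gene at a Spearman's rho of 0.81 on the plus strand (n = 723) and 0.81 on the minus strand (n = 666). For intronic peaks rho was 0.73 on the plus strand (n = 12607) and -0.67 on the minus strand (n = 12479). In Cacna1c, on the minus strand, the peak 18.9 kb from the annotated start is listed in intron 46 of 46. A class built on the intron number of this table, such as first introns, would therefore hold the 5' end of plus-strand genes together with the 3' end of minus-strand genes. These values describe the annotation of 1 table and carry no p.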
